A study of Saccharomyces cerevisiae with 12 samples.

Results

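The genes described here carry budding yeast cells from G1 into S phase and copy and hold together their chromosomes. They are 34 genes, listed by name and found on the array by the ORF name of each symbol, out of 6127 genes tested and 6228 genes on the array. The list takes in the G1/S cyclins with SWI4, origin licensing and the replicative helicase, the replication fork, nucleotide supply, the checkpoint and fork protection, mismatch repair and cohesin. Each of the 34 was read by 1 probe printed as 2 spots, and all 34 were well above background on all 12 arrays, so the filter on dim probes removed none.

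RNA was measured on 12 single-colour Agilent arrays in 4 groups of 3, described by the submitters as coming from 3 independent experiments. BY4741, a haploid MATa laboratory strain taken as wild type, carried an empty vector (WT_Con) or over-expressed CTR1, which encodes the high-affinity copper transporter of the plasma membrane (WT_CTR1). BY4741 with CTR1 deleted carried an empty vector (Dctr1_Con) or over-expressed the construct CTR1 delta-300 (Dctr1_CTR1D300, shortened to CTR1D300). All 4 groups, controls included, were adjusted to an OD600 of 0.6 in leucine-free synthetic medium and grown for 7 h at 30 °C with 0.02 mM CuCl2. No group paired CTR1 delta-300 with the wild type or full-length CTR1 with the deletion strain, so strain and construct cannot be told apart between the over-expressing groups. The promoter that drives the constructs and the number of clones per strain are not given in the sources used here.

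Commitment to division at Start begins with G1 cyclins bound to the kinase Cdc28, which free the transcription factors SBF (Swi4 with Swi6) and MBF (Mbp1 with Swi6) to switch on a wave of late G1 genes. That wave is known to include CLN1, CLN2, CLB5, CLB6 and many genes of DNA replication and cohesion, while the MCM genes are known to peak earlier, around the end of mitosis. The Mcm2-7 helicase is loaded at origins by ORC and Cdc6 in G1, S phase cyclins then trigger its firing, and cohesin ties the new sister chromatids together as the fork passes.

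The CTR1 probe read -2.51, -2.53 and -2.47 in WT_Con and 4.76, 4.56 and 4.53 in WT_CTR1 (log2 signal relative to each array's 75th percentile, replicates 1 to 3). On none of the 6 deletion-strain arrays did it rise well above background, so it gives only a bound there and does not check the CTR1 delta-300 construct. The probe of YPR123C, an ORF that overlaps CTR1, had a mean of -9.83 in Dctr1_Con (well above background on 1 of 3 arrays) and -4.85 in CTR1D300 (on 3 of 3). The median spot signal per array lay between 1792 and 2999, between 95.9% and 98.6% of spots were well above background, and none was saturated. Replicates of a group correlated at r between 0.992 and 0.998 across genes. Slide 1, scanned first, held replicate 1 of every group, slide 2 held replicates 2 and 3 of the wild type, and slide 3 those of the deletion strain. On every slide the control arrays sat in column 1 and the over-expressing arrays in column 2, so slide column and construct cannot be told apart within a strain. An additive effect of column cancels in the difference between the construct effects. Of the genes defective in BY4741, HIS3, MET17 and URA3 did not rise well above background on a single array. LEU2, also defective in BY4741, did so on all 12, with group means from 5.86 (WT_Con) down to -0.79 (CTR1D300). The source of the LEU2 signal was not tested. The 5 MATa genes examined (MFA1, MFA2, STE2, BAR1 and STE6) were well above background on all 12. The MATalpha genes MF(ALPHA)1, MF(ALPHA)2 and STE3 were too, and probe levels cannot be set against each other. In CTR1D300 against Dctr1_Con, MF(ALPHA)1 changed by -2.52 ± 0.14, STE3 by -1.05 ± 0.09, MF(ALPHA)2 by 0.33 ± 0.10, STE2, the only MATa gene called, by -0.30 ± 0.09, and LEU2 by -6.38 ± 0.26 (log2 fold change ± SE). In WT_CTR1 against WT_Con, LEU2 changed by -1.51 ± 0.26, MF(ALPHA)1 by 0.79 ± 0.14, MFA1 by -0.81 ± 0.16 and STE2 by -0.70 ± 0.09. The part of these changes in the results that follow was not tested.

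The first comparison asks what CTR1 delta-300 did to these genes in the deletion strain. Cultures of CTR1D300 had lower RNA levels of the G1/S cyclins, of most fork proteins, of thymidylate synthase, of the checkpoint kinase Rad53 and of all cohesin subunits than cultures of Dctr1_Con, while MCM2 was the only MCM helicase gene called and DUT1 was not called. Of the 34 genes, 26 fell and 0 rose at a Benjamini-Hochberg adjusted p under 0.05 in the limma fit, where 30.6% of all genes tested were lower and 24.0% higher. The median log2 fold change of the 34 was -0.47, beside -0.05 over all genes tested. The 26 falls ranged from 1.17-fold to 2.71-fold, and 4 of them exceeded 2-fold (CDC21, CLN1, CLN2 and MCD1). For 33 of the 34 the difference was negative in all 3 replicates. By the sign of the log2 fold change, 54.7% of all genes tested were negative. The median difference of the 34 was -0.44, -0.54 and -0.43 in replicates 1, 2 and 3, where all genes had -0.03, -0.04 and -0.07. For 27 genes the 3 CTR1D300 arrays all lay below the 3 Dctr1_Con arrays, which held for 34.9% of all genes. RNA came from whole cultures, so fewer cells passing through late G1 and less of each RNA per cell cannot be told apart.

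The mean of the 34 genes on each array shows the same contrast. It was -0.94, -0.74 and -0.80 in WT_Con, -0.83, -0.71 and -0.72 in WT_CTR1, -0.96, -0.75 and -0.83 in Dctr1_Con, and -1.46, -1.30 and -1.35 in CTR1D300. The 3 CTR1D300 arrays lay below the 9 others, while the other 3 groups overlapped, and in all 4 groups replicate 1, on slide 1, was the lowest.

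**Figure D1:**
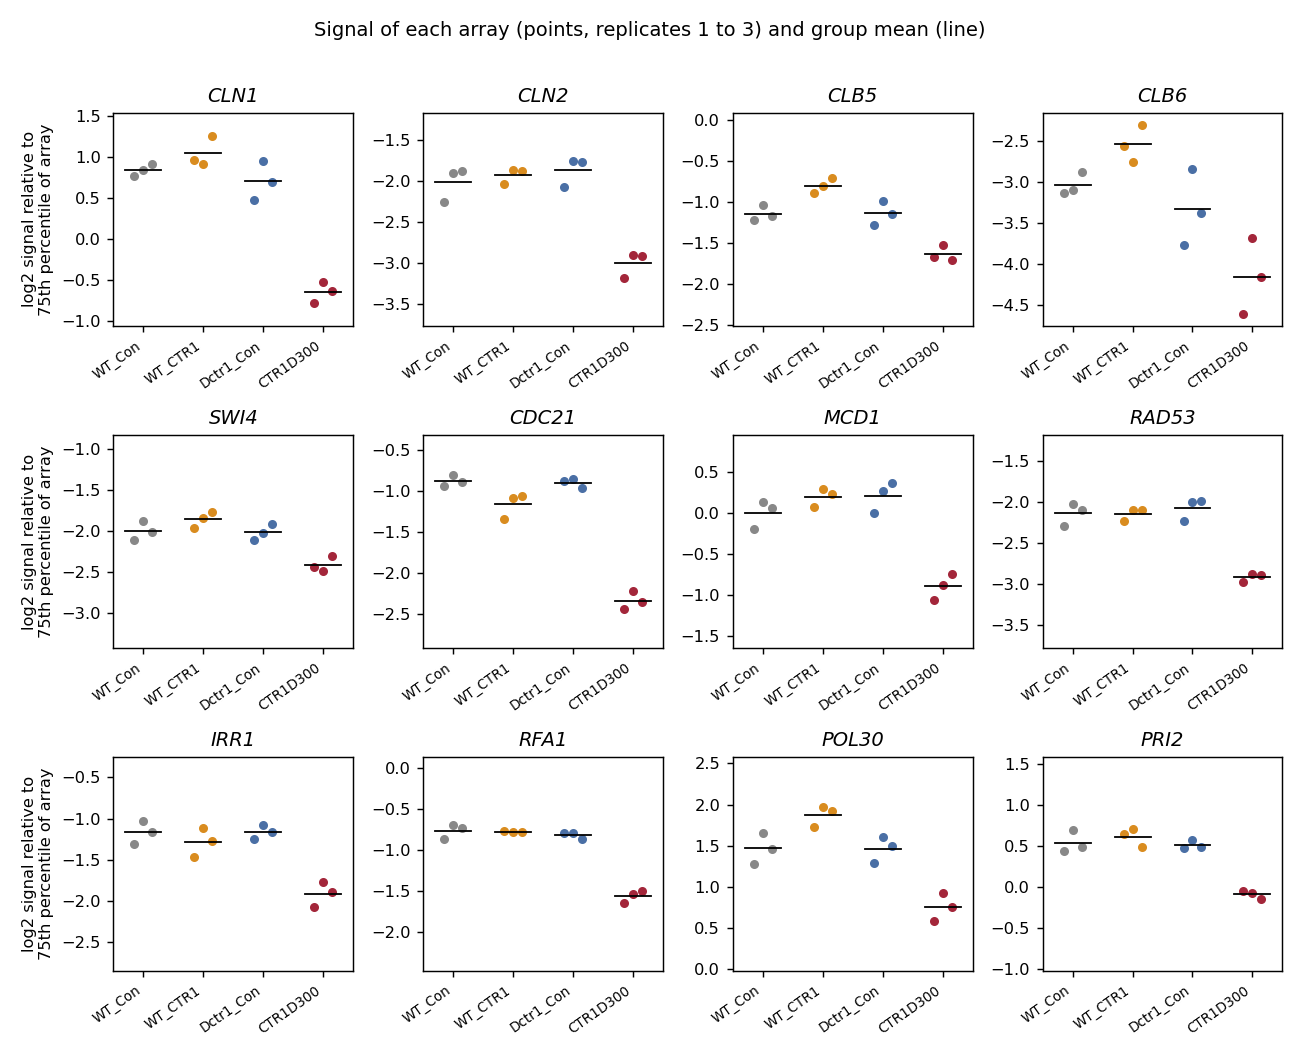
Log2 signal relative to the array's 75th percentile (vertical axis, each panel spanning the same number of log2 units) of 12 genes on each of the 12 arrays, which are grouped along the horizontal axis by group. Points are single arrays and bars are group means. The CTR1D300 points lie below the 3 other groups in all panels except that of CLB6, where CTR1D300 replicate 2 (-3.69) lies above Dctr1_Con replicate 1 (-3.77).

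All 5 of the cyclin and SWI4 genes fell in CTR1D300, with a median log2 fold change of -0.82. CLN1 (YMR199W), a G1 cyclin that drives bud emergence and entry into S phase, read 0.77, 0.84 and 0.91 in WT_Con, 0.96, 0.91 and 1.26 in WT_CTR1, 0.47, 0.95 and 0.70 in Dctr1_Con and -0.78, -0.52 and -0.64 in CTR1D300. The CTR1D300 arrays, the only ones below 0, lay clear of all others, and the log2 change was -1.35 ± 0.13 (log2 fold change ± SE, n = 3 arrays per group, 2.55-fold, adjusted p = 9.39e-06). Its partner CLN2 (YPL256C), a G1 cyclin with overlapping roles, stood at -2.25, -1.89 and -1.88 in WT_Con, -2.03, -1.86 and -1.87 in WT_CTR1, -2.07, -1.75 and -1.76 in Dctr1_Con and -3.18, -2.90 and -2.91 in CTR1D300. Again no CTR1D300 array overlapped another group, and CLN2 fell by 1.14 on the log2 scale (SE 0.13, 2.2-fold, adjusted p = 2.99e-05).

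The S phase cyclins fell too. CLB5 (YPR120C), which promotes the firing of early and late origins, read -1.21, -1.04 and -1.16 in WT_Con, -0.88, -0.80 and -0.71 in WT_CTR1, -1.28, -0.98 and -1.14 in Dctr1_Con and -1.67, -1.52 and -1.71 in CTR1D300. CTR1D300 was lowest, WT_CTR1 highest, and the 2 control groups overlapped, with a log2 change of -0.50 ± 0.09 against Dctr1_Con (adjusted p = 8.50e-04). For CLB6 (YGR109C), the second S phase cyclin, the values were -3.13, -3.10 and -2.88 in WT_Con, -2.57, -2.76 and -2.30 in WT_CTR1, -3.77, -2.84 and -3.38 in Dctr1_Con and -4.61, -3.69 and -4.16 in CTR1D300. Dctr1_Con and CTR1D300 overlapped here, although each replicate of CTR1D300 lay below the Dctr1_Con replicate of the same number, and the change was -0.82 ± 0.25 (adjusted p = 0.0179). CLB6 had the widest error of the 34 genes, and its call was lost in 6 of 26 alternative settings, with an adjusted p up to 0.0668, among them the fits without Dctr1_Con replicate 2 or CTR1D300 replicate 1. SWI4 (YER111C), which encodes the DNA-binding subunit of SBF, read -2.11, -1.87 and -2.01 in WT_Con, -1.96, -1.83 and -1.76 in WT_CTR1, -2.11, -2.01 and -1.91 in Dctr1_Con and -2.43, -2.49 and -2.30 in CTR1D300. Its CTR1D300 arrays lay below the other 9, and the log2 change of -0.39 ± 0.09 (adjusted p = 0.00298) was the smallest of the 5.

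Most origin licensing genes were not called. Of the 8, CDC45 and MCM2 fell, and the median log2 fold change was -0.17. CDC45, which joins the MCM ring and GINS in the active helicase, read -1.12, -0.92 and -1.07 in Dctr1_Con and -1.58, -1.58 and -1.61 in CTR1D300, with no overlap, a log2 change of -0.56 ± 0.08 (adjusted p = 1.56e-04). Across the 6 subunits of the Mcm2-7 ring the median was -0.13, with 1 subunit called, while the other 28 genes had a median of -0.50 with 25 called. MCM2 changed by -0.23 ± 0.08 (adjusted p = 0.0296), with 0.01 from its lower-numbered spot and -0.46 from the other. Its call was lost in 9 of 26 alternative settings, and its sign reversed in 1 more. The 9 included median centring, quantile normalization, another background correction (normexp) and the authors' series matrix values. They also included the fits without Dctr1_Con replicate 2 or 3 or CTR1D300 replicate 1 or 3. The 5 other subunits were not called, with log2 fold changes of -0.10 for MCM3, -0.11 for MCM4, -0.16 for MCM5, -0.18 for MCM6 and -0.06 for MCM7. The lowest of their 95% interval bounds was -0.39, but these intervals come from the averaged spots and do not cover differences between spots. MCM3 gave -0.22 from its lower-numbered spot alone (adjusted p = 0.0084 in limma) and 0.01 from the other. MCM4 to MCM7 were called with neither spot alone. MCM6 passed the threshold with a replicate block (adjusted p = 0.00617, against 0.111 without). CDC6, which loads the MCM ring together with ORC, varied widely between replicates, at -3.09, -2.40 and -2.59 in Dctr1_Con and -3.36, -2.94 and -2.92 in CTR1D300. Those ranges overlapped and its change of -0.38 ± 0.22 was not called (adjusted p = 0.157).

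At the replication fork 10 of 11 genes fell, with a median of -0.48, and POL2 was the exception. POL30 (YBR088C) encodes PCNA, the sliding clamp of the DNA polymerases. It read 1.27, 1.65 and 1.46 in WT_Con, 1.73, 1.97 and 1.92 in WT_CTR1, 1.29, 1.60 and 1.49 in Dctr1_Con and 0.58, 0.93 and 0.76 in CTR1D300. CTR1D300 lay below and WT_CTR1 above the overlapping control groups, and POL30 fell by 0.71 on the log2 scale against Dctr1_Con (SE 0.12, adjusted p = 7.33e-04). All 3 subunits of RPA, the single-stranded DNA binding complex, fell. RFA1 (YAR007C), the large subunit, stood at -0.86, -0.69 and -0.74 in WT_Con, -0.76, -0.79 and -0.78 in WT_CTR1, -0.80, -0.80 and -0.86 in Dctr1_Con and -1.64, -1.53 and -1.50 in CTR1D300. The other 9 arrays lay close together, CTR1D300 lay clear below them, and the log2 change was -0.74 ± 0.06 (adjusted p = 4.70e-06). RFA2 fell by 0.60 (adjusted p = 1.23e-05) and RFA3 by 0.47 (adjusted p = 0.00129) on the log2 scale.

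DNA polymerase alpha-primase, which lays the primers of both strands, fell in all 4 subunits, with a median of -0.41. The primase subunit PRI2 (YKL045W) read 0.44, 0.69 and 0.49 in WT_Con, 0.64, 0.71 and 0.49 in WT_CTR1, 0.48, 0.57 and 0.48 in Dctr1_Con and -0.05, -0.08 and -0.15 in CTR1D300. The other 3 groups overlapped each other and CTR1D300 lay below them, a log2 change of -0.60 ± 0.08 (adjusted p = 1.31e-04). PRI1, the catalytic primase subunit, fell by 0.37 (adjusted p = 0.00145) and POL1, the catalytic polymerase subunit, by 0.46 (adjusted p = 0.00979). POL12, the regulatory subunit, fell by 0.33 (adjusted p = 0.0353), a call lost without Dctr1_Con replicate 2 or 3 or CTR1D300 replicate 1 or 3 and in 4 other settings, with an adjusted p up to 0.121. Of the genes that finish lagging strands, CDC9, DNA ligase I, fell by 0.48 (adjusted p = 3.96e-04) and the flap endonuclease gene RAD27 by 0.50 (adjusted p = 0.00738). POL2, the catalytic subunit of the leading-strand polymerase epsilon, changed by -0.18 ± 0.10 with a 95% interval of -0.39 to 0.03 (adjusted p = 0.126), although its 3 CTR1D300 arrays all lay below Dctr1_Con.

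Of the nucleotide genes, CDC21 fell and DUT1 was not called. CDC21 (YOR074C), thymidylate synthase, which makes dTMP from dUMP, had the largest change of the 34. It read -0.94, -0.80 and -0.89 in WT_Con, -1.34, -1.08 and -1.06 in WT_CTR1, -0.88, -0.86 and -0.96 in Dctr1_Con and -2.43, -2.22 and -2.36 in CTR1D300. The control groups overlapped, WT_CTR1 lay below both, CTR1D300 lay lowest, and the log2 change against Dctr1_Con was -1.44 ± 0.09 (2.71-fold, adjusted p = 4.69e-07). DUT1, the dUTPase that supplies dUMP for the same step, read -1.05, -0.77 and -0.97 in Dctr1_Con and -0.94, -0.74 and -0.96 in CTR1D300. These arrays overlapped, and its change was 0.05 ± 0.10 with a 95% interval of -0.17 to 0.27 (adjusted p = 0.68).

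RAD53 (YPL153C) encodes the effector kinase of the S phase checkpoint. Its values were -2.29, -2.04 and -2.10 in WT_Con, -2.24, -2.10 and -2.11 in WT_CTR1, -2.23, -2.00 and -2.00 in Dctr1_Con and -2.98, -2.89 and -2.89 in CTR1D300. CTR1D300 lay below all other arrays, a log2 change of -0.84 ± 0.09 (adjusted p = 1.95e-05). The fork protection partners fell as well, CSM3 by 0.39 (adjusted p = 4.52e-04) and TOF1 by 0.35 (adjusted p = 0.0385) on the log2 scale. The TOF1 call was lost in 11 of 26 alternative settings, with an adjusted p up to 0.121, among them the fits without Dctr1_Con replicate 2 or 3 or CTR1D300 replicate 1, 2 or 3. MSH6, which recognises base mismatches, fell by 0.42 (adjusted p = 0.0148).

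All 4 core cohesin subunits fell, with a median of -0.64. MCD1 (YDL003W), the kleisin that closes the cohesin ring and is cut at anaphase, read -0.19, 0.14 and 0.06 in WT_Con, 0.07, 0.30 and 0.24 in WT_CTR1, 0.00, 0.27 and 0.37 in Dctr1_Con and -1.05, -0.87 and -0.74 in CTR1D300. No CTR1D300 array reached the others, and the log2 change was -1.10 ± 0.12 (2.14-fold, adjusted p = 3.27e-05). IRR1 (YIL026C), the HEAT-repeat subunit also called Scc3, read -1.31, -1.03 and -1.16 in WT_Con, -1.47, -1.11 and -1.27 in WT_CTR1, -1.25, -1.08 and -1.17 in Dctr1_Con and -2.08, -1.77 and -1.90 in CTR1D300. CTR1D300 lay below the other 9 arrays, with a change of -0.75 ± 0.11 (adjusted p = 2.37e-04). The ATPase subunits SMC3 and SMC1 fell by 0.54 (adjusted p = 0.00497) and 0.47 (adjusted p = 7.53e-04) on the log2 scale.

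**Figure D2:**
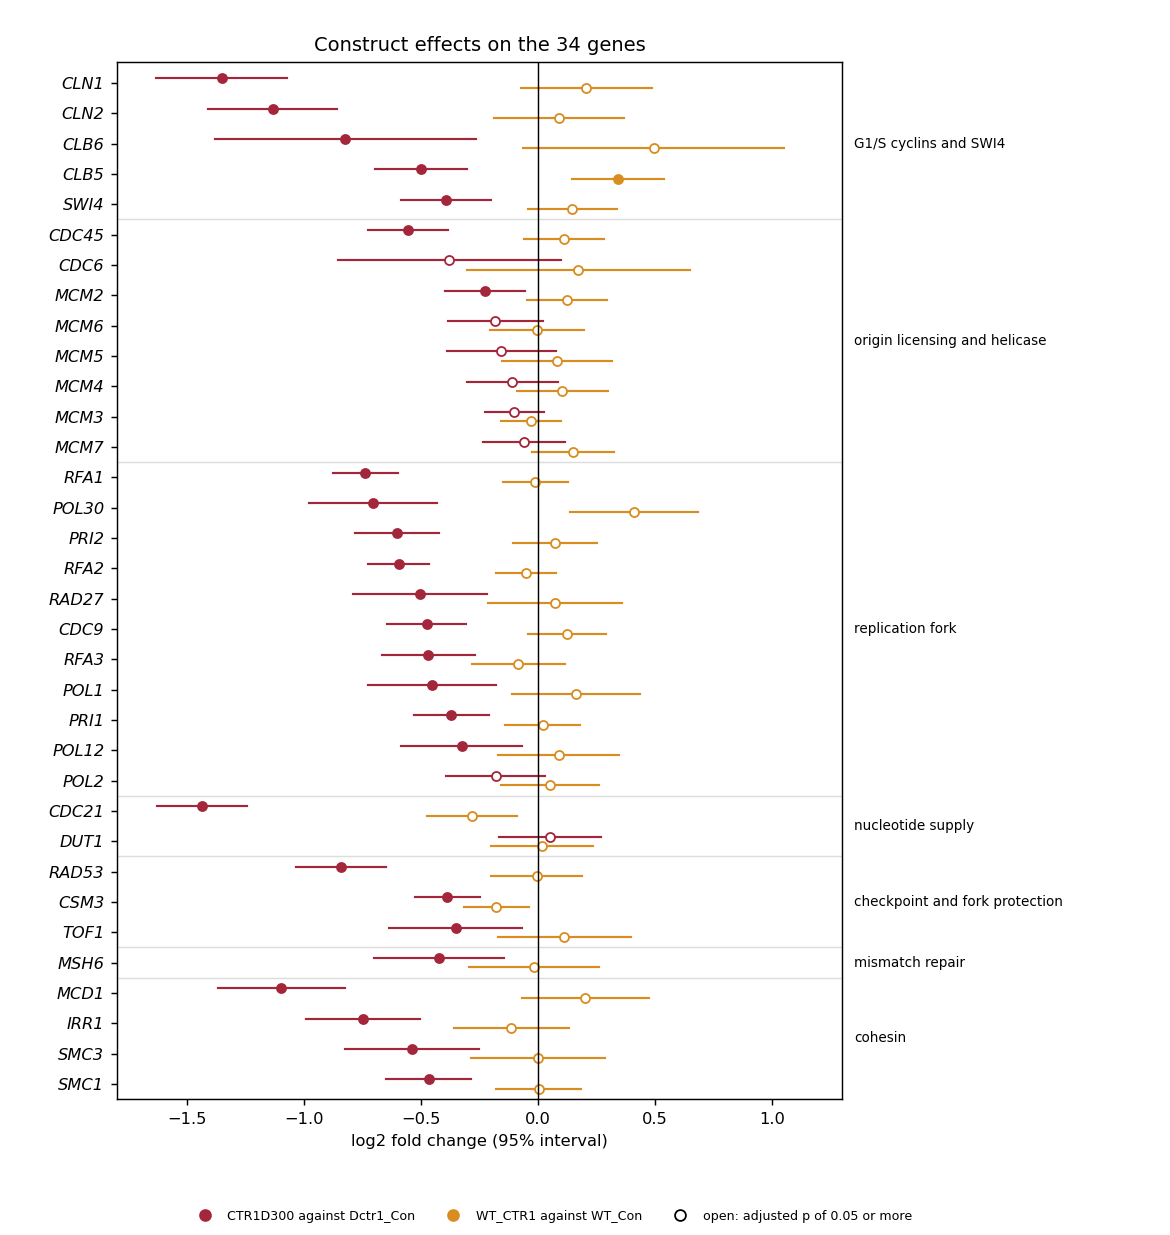
Log2 fold change (horizontal axis) with its 95% interval of each of the 34 genes, by role, for CTR1D300 against Dctr1_Con and for WT_CTR1 against WT_Con. Filled points have an adjusted p under 0.05 in limma, 26 of 34 genes in the first comparison and 1 of 34 (CLB5) in the second.

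Other genes of these pathways, not among the 34, gave a mixed picture in CTR1D300 against Dctr1_Con, where 30.6% of all genes were lower and 24.0% higher. Of 13 regulators of Start and G1, 10 fell and 0 rose, with a median of -0.44. They included PCL1 at -1.46 ± 0.16 and PCL2 at -0.91 ± 0.14, G1 cyclins of the kinase Pho85, the SBF repressor gene WHI5 at -0.87 ± 0.19, CDC28 at -0.53 ± 0.06 and the upstream cyclin gene CLN3 at -0.48 ± 0.15. Of 17 genes of origin recognition and firing, 5 fell and 6 rose, with a median of -0.04, and 3 fell and 3 rose with each spot alone. PSF2 rose by 1.60 ± 0.11 and SLD5 by 0.46 ± 0.07, while PSF1 changed by -0.39 ± 0.07, all 3 being subunits of the GINS complex. SLD2 changed by -0.61 ± 0.12 and DBF4, the activator of the Cdc7 kinase, by -0.51 ± 0.10. Among 19 other fork and clamp loader genes 5 fell and 3 rose, with a median of -0.08, and 2 fell and 2 rose with each spot alone. The falls in both lists were close to the share over all genes. RFC4 rose by 1.13 ± 0.09, DPB4 by 0.65 ± 0.10 and DCC1 by 0.54 ± 0.08, whereas CTF4 changed by -0.50 ± 0.08 and CTF18 by -0.44 ± 0.10. Of 5 cohesin loading and regulation genes 3 fell (PDS5 by 0.71, SCC2 by 0.44 and ECO1 by 0.23), and of 5 other mismatch repair genes 3 fell (among them PMS1 by 0.38 and EXO1 by 0.37). With each spot alone, 1 of the 3 cohesin regulation falls and 2 of the 3 mismatch repair falls held, where 22.2% of all genes were lower and 16.2% higher in that way. Of the genes just named, RFC4, CTF18, SCC2, ECO1 and PMS1 were not called the same way with each spot alone.

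Genes on the lists drawn up for G2/M and for M/G1 were lower too, although the phase at which each peaks was not measured here. Of 13 G2/M genes 10 fell and 0 rose, with a median of -0.40, and 8 of the falls held with each spot alone. Among the 10 were CLB1 at -0.70 ± 0.15, which encodes a mitotic cyclin, and BUD4 at -0.63 ± 0.11, MYO1 at -0.54 ± 0.13 (not called with each spot alone) and NDD1 at -0.50 ± 0.06. All 9 M/G1 genes fell, with a median of -0.79, led by DSE2 at -1.05 ± 0.23, the chitinase gene CTS1 at -0.97 ± 0.18, ASH1 at -0.92 ± 0.11, DSE1 at -0.91 ± 0.18 and PCL9 at -0.79 ± 0.12. The fall was thus measured in genes listed under several phases, and the share of cells in each phase was not measured.

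**Figure D3:**
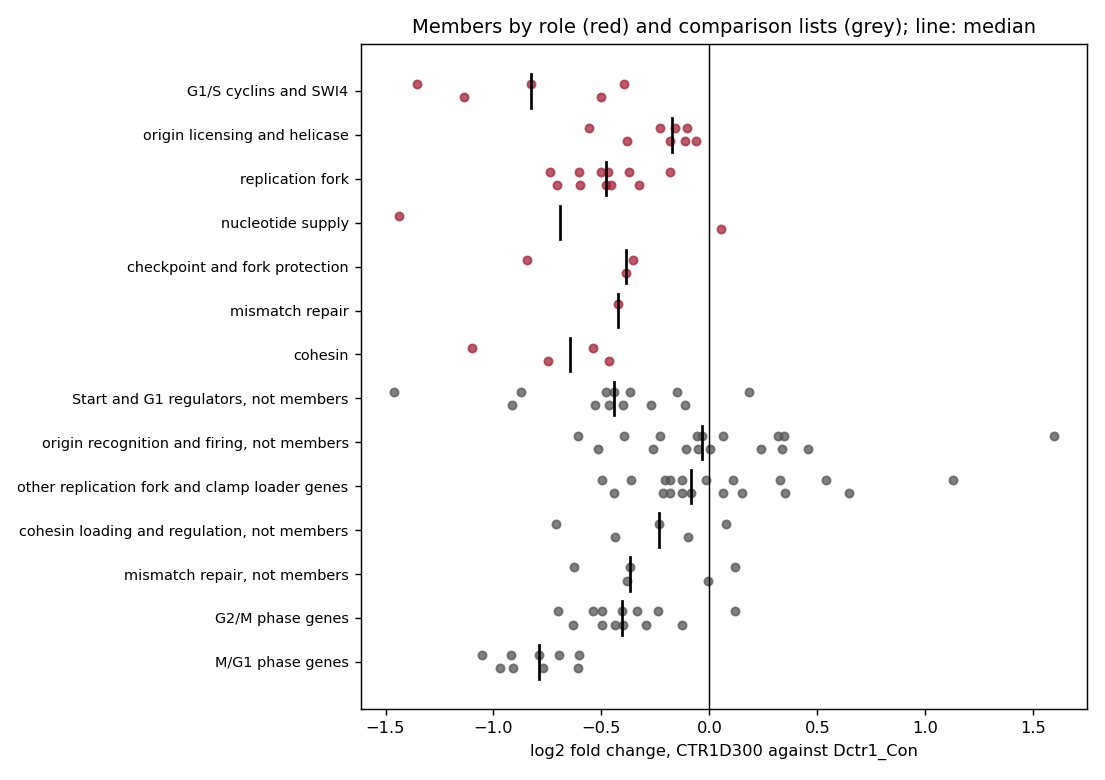
Log2 fold change (horizontal axis) of every gene in the 7 roles of the 34 genes and in the 7 comparison lists, for CTR1D300 against Dctr1_Con, with the median of each list marked. The roles other than licensing centre between -0.39 and -0.82, and the lists of origin firing and of other fork genes centre at -0.04 and -0.08.

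Full-length CTR1 in the wild type left nearly all 34 genes without a call. Against WT_Con, 1 of 34 rose (CLB5) and 0 fell in the limma fit, where 7.25% of all genes tested were higher and 6.02% lower. An unadjusted p under 0.05 was found for 4 of the 34, beside 1674 of all 6127 genes. The median log2 fold change was 0.08, with 23 genes positive and 11 negative, where 46.2% of all genes were negative. CLB5 rose by 0.34 ± 0.09 (adjusted p = 0.0291), with 0.24 from its lower-numbered spot and 0.47 from the other. Its call was lost with the lower-numbered spot alone, with median centring, without slide 1, and without WT_Con replicate 1 or 3 or WT_CTR1 replicate 3, with an adjusted p up to 0.114. The groups did not overlap for 5 genes that were higher in WT_CTR1 (17.0% of all genes) and for 2 that were lower (13.7% of all genes).

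With a replicate block, in which same-numbered arrays are paired, 5 of the 34 genes were called, beside 1677 of all 6127 genes tested. CLB5 (adjusted p = 0.00473), POL30 (adjusted p = 4.93e-04) and MCD1 (adjusted p = 0.0279) were higher, and CDC21 (adjusted p = 0.0133) and CSM3 (adjusted p = 0.0409) were lower. Without the block POL30 changed by 0.41 ± 0.12 (adjusted p = 0.0524), CDC21 by -0.28 ± 0.09 (adjusted p = 0.0573), CSM3 by -0.18 ± 0.06 (adjusted p = 0.089) and MCD1 by 0.20 ± 0.12 (adjusted p = 0.327). The 2 spots did not give the same size for 3 of these probes, since POL30 had 0.76 and 0.08, CDC21 -0.50 and -0.04, and CSM3 -0.34 and 0.00 from the lower-numbered and the other spot. The spots of MCD1 gave 0.16 and 0.26. The largest change by size was that of CLB6, 0.49 ± 0.25, which was not called (adjusted p = 0.243).

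Across the 34 genes, the fold changes of the 2 spots of a probe differed by a median of 0.16 log2 units in each construct comparison, and by up to 0.60 (CLN1) with CTR1 delta-300 and 0.69 (POL30) with CTR1. In WT_CTR1 against WT_Con the spots disagreed in sign for 16 of the 34 genes, and in CTR1D300 against Dctr1_Con for 3. Over all 6127 genes tested they disagreed in sign for 2300 and 1221. The median gaps over all genes were 0.17 with CTR1 and 0.16 with CTR1 delta-300, so the gap was not particular to the 34. Where the groups compared shared a slide column, the median gap of the 34 was 0.04 log2 units. With each spot alone, 22 of the 26 falls in CTR1D300 remained called, beside 22.2% of all genes called lower in that way, and CLB6, MCM2, POL12 and TOF1 were the 4 that did not.

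**Figure D4:**
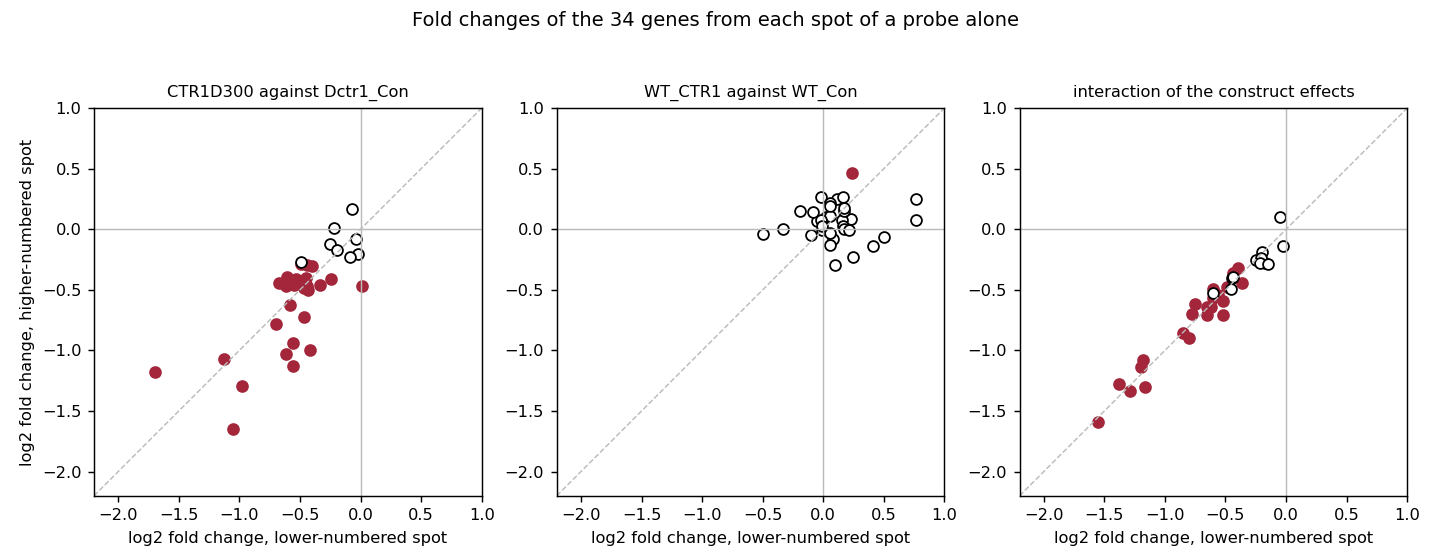
Log2 fold change of each of the 34 genes from the lower-numbered spot (horizontal axis) and the higher-numbered spot (vertical axis) of its probe. The panels show CTR1D300 against Dctr1_Con, WT_CTR1 against WT_Con and the difference between these construct effects (interaction), each with the line of equal values. The spots differ by a median of 0.16 in the construct comparisons and 0.06 in the interaction.

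Deletion of CTR1 on its own moved none of these genes past the threshold. In Dctr1_Con against WT_Con 0 of 34 were called in limma, where 0.490% of all genes were called. An unadjusted p under 0.05 was found for 0 of the 34, beside 525 of all 6127 genes. All 34 of the 95% intervals held 0. The log2 fold changes ran from -0.29 ± 0.25 for CLB6 to 0.21 ± 0.12 for MCD1. CLB5 lies on the same chromosome as CTR1 with 2 genes between them in the RefSeq annotation (assembly R64), and its change was 0.01 ± 0.09, with a 95% interval of -0.19 to 0.20. No gene of the comparison lists was called in this contrast either.

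The over-expressing groups sat in the same slide column. CTR1D300 was called lower than WT_CTR1 for 28 of 34 genes and higher for 0, where 38.4% of all genes were lower and 24.5% higher. All 34 differences were negative in all 3 replicates, and no probe's spots disagreed in sign. Over all genes tested, 59.8% of the differences were negative, and the spots disagreed in sign for 300 of 6127. The median was -0.57 for the 34 genes and -0.11 for all genes, and with quantile normalization these were -0.49 and 0.00. The share of called genes that were higher moved with the scaling, from 38.9% to 50.5% with quantile normalization and 48.0% with median centring. The 12 largest differences were -1.69 for CLN1, -1.61 for CLB6, -1.18 for CDC21, -1.12 for POL30, -1.09 for MCD1, -1.08 for CLN2, -0.84 for CLB5, -0.78 for RFA1, -0.77 for RAD53, -0.74 for CDC45, -0.72 for RAD27 and -0.70 for PRI2, all called. MCM3, MCM4, MCM5, MCM6, POL2 and DUT1 were not called, with log2 differences from -0.23 (MCM5) to -0.04 (MCM3). Single arrays decided the calls of MCM7 (without WT_CTR1 replicate 1 or 3 or CTR1D300 replicate 1 or 2), CDC6 (without WT_CTR1 replicate 1 or 3 or CTR1D300 replicate 1), POL12 (without WT_CTR1 replicate 2 or CTR1D300 replicate 1), TOF1 (without WT_CTR1 replicate 2 or CTR1D300 replicate 1 or 3) and MSH6 (without WT_CTR1 replicate 2 or CTR1D300 replicate 1), with adjusted p up to 0.0975, 0.0966, 0.0693, 0.102 and 0.0833 in those fits. With slide as a fixed block, TOF1 (adjusted p = 0.13) and MSH6 (adjusted p = 0.0975) were not called. The scaling also ended calls, with median centring those of MCM7, POL12, TOF1 and MSH6. Quantile normalization and the authors' series matrix values each ended those of MCM7, CDC6 and TOF1. Over all alternative settings of the limma fit the adjusted p of MCM7 reached 0.295. For 30 genes the groups did not overlap, as for 39.3% of all genes.

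The last comparison tests whether the construct effects differed, as the interaction (CTR1D300 minus Dctr1_Con) minus (WT_CTR1 minus WT_Con), in which an additive effect of slide column cancels. At an adjusted p under 0.05 it was below 0 for 22 of 34 genes and above 0 for 0, where 26.7% of all genes were lower and 19.7% higher. By sign alone, 33 of the 34 were negative, as were 56% of all genes. The median was -0.54 for the 34 genes and -0.07 for all genes. All 22 were also called with each spot alone, against 22.8% of all genes lower in that way. All 5 cyclin and SWI4 genes and all 4 cohesin genes were among them, with 9 of 11 fork genes, CDC21 of the nucleotide genes, RAD53 of the checkpoint genes, and MCM2 and CDC45 of the 8 licensing genes.

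CLN1 had the largest interaction, -1.56 ± 0.18 (adjusted p = 5.84e-05), made of -1.35 with CTR1 delta-300 and 0.20 with CTR1. CDC21 gave -1.15 ± 0.12 (adjusted p = 3.52e-05), made of -1.44 and -0.28. For POL30 it was -1.12 ± 0.18 (adjusted p = 5.18e-04), and its 2 spots, which differed in each construct comparison, gave -1.18 and -1.08 here. The spots of RAD53 likewise gave -0.80 and -0.90, beside -0.56 and -1.13 in CTR1D300 against Dctr1_Con. MCM2, whose spots gave 0.01 and -0.46 in that comparison, had -0.40 and -0.32 in the interaction and -0.35 ± 0.11 from their mean (adjusted p = 0.0245). The remaining called interactions lay between -0.39 (RFA3) and -1.32 (CLB6).

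Among the 12 genes without a called interaction, DUT1 had 0.03 ± 0.14 with a 95% interval of -0.27 to 0.34, and MCM3 had -0.07 ± 0.08 with an interval of -0.25 to 0.11. With a replicate block 7 more passed, namely MCM4 (adjusted p = 0.0298), MCM6 (adjusted p = 0.0385), MCM7 (adjusted p = 0.0386), POL12 (adjusted p = 5.63e-04), TOF1 (adjusted p = 0.00577), CSM3 (adjusted p = 0.0435) and MSH6 (adjusted p = 0.011). With that block 3673 of all 6127 genes had a called interaction, beside 2845 without it. Of the 22 calls, 16 held in every alternative setting. MCM2 (without WT_Con replicate 1, WT_CTR1 replicate 3, Dctr1_Con replicate 2 or 3 or CTR1D300 replicate 3), RFA3 (without WT_Con replicate 1 or 2, WT_CTR1 replicate 3, Dctr1_Con replicate 2 or CTR1D300 replicate 1 or 3), RAD27 (without WT_Con replicate 1, Dctr1_Con replicate 2 or 3 or CTR1D300 replicate 1 or 3) and SMC3 (without WT_Con replicate 1 or 3, WT_CTR1 replicate 2, Dctr1_Con replicate 2 or 3 or CTR1D300 replicate 1 or 3) lost theirs on leaving out single arrays, with adjusted p up to 0.0618, 0.069, 0.0563 and 0.0733 in those fits. The calls of MCM2, RFA3 and SMC3 were also lost with median centring, and that of MCM2 with normexp background correction. RFA3 lost its call with quantile normalization and with the authors' series matrix values too, and RFA3 and SMC3 without slide 1. PRI1 (adjusted p = 0.0885) and POL1 (adjusted p = 0.0632) lost theirs only without slide 1. The 4 groups enter this contrast as well as those above, so its values are not independent of them.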

How the data were processed

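Each scanner file gives, per the file headers, values from Agilent Feature Extraction 10.7.1.1 for an array annotated against sacCer1. Its processed signal, an intensity from which the background was subtracted, was deposited without scaling between arrays. Other deposited columns are flags of 0 or 1 for spots that rise well above background, are saturated or are outliers. The authors' series matrix holds deposited log2 values with a column median of 11.69. Its scale and array direction followed the scanner values (lowest r 0.99969), its values were not centred by gene, and the choice of its probes is not given in the labels or headers.

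Spots flagged as outliers were left out, the 2 spots of a probe averaged, and the array's 75th percentile subtracted from the log2 processed signal. The brightest probe stood for a gene, and a probe had to be well above background on 3 or more arrays. Group means over all 12 arrays were fitted with limma 3.58.1 in R 4.3.3 (8 residual degrees of freedom), with Benjamini-Hochberg adjustment over 6127 genes and a threshold of 0.05. Adjusted p-values and standard errors come from this fit, except where a block, a single spot or an omitted array or slide is named. The fit was also run on simulated data with independent noise on each array. Those data lack the correlation between arrays given below, so they do not check the p-values under it. p-values set a difference against the spread between arrays of a group, pooled over the 4 groups. That spread holds differences between cultures and between slides together.

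Deviations from the group means correlated between arrays of the same number. For CTR1D300 and Dctr1_Con r was 0.679, 0.700 and 0.394, and for WT_CTR1 and WT_Con 0.750, 0.692 and 0.342. For Dctr1_Con and WT_Con r was 0.554, 0.295 and 0.134. For CTR1D300 and WT_CTR1 (r = 0.381, 0.407 and -0.03) replicate 3 showed no such relation. Replicate 1 of every group lay on slide 1, and replicates 2 and 3 of a strain shared a slide, so pairing by number and a shared slide cannot be fully told apart. The labels do not say that a number marks 1 experiment, and the main fit used no pairing.

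All 34 genes are named by role. Those with the 10 largest changes in CTR1D300 against Dctr1_Con, and the cyclins with SWI4, have a value for every array, and up to 5 called genes of each comparison list are named by size, except for some that are not reported here. The genes and the comparison lists were chosen with earlier results of these data known. Alternatives varied the scaling, background correction (normexp), dim-probe filter, spots, blocks and arrays. Gene names and neighbours came from a RefSeq table of assembly R64, whose coordinates were not used because the array names another assembly. Promoter and protein sequences were not used here.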

Additional observations from a re-analysis of the deposited data

Results flagged for a closer look

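For 22 of the 34 genes the effect of CTR1 delta-300 in the deletion strain differed from that of CTR1 in the wild type, by the interaction term of the limma fit (adjusted p under 0.05), and all 22 differences were below 0. Among the cyclins and SWI4 the log2 differences were -1.56 for CLN1, -1.32 for CLB6, -1.22 for CLN2, -0.84 for CLB5 and -0.54 for SWI4. At the fork they were -1.12 for POL30, -0.73 for RFA1, -0.67 for PRI2, -0.62 for POL1, -0.60 for CDC9, -0.58 for RAD27, -0.55 for RFA2, -0.39 for PRI1 and -0.39 for RFA3. The cohesin genes had -1.30 (MCD1), -0.63 (IRR1), -0.54 (SMC3) and -0.47 (SMC1). The others were -1.15 for CDC21, -0.84 for RAD53, -0.67 for CDC45 and -0.35 for MCM2. Strain and construct differ together in this contrast and cannot be told apart.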

How the results depend on the processing

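The number of genes called stayed within 1.5 times its value in 4 of the 5 comparisons. It was 22 to 27 for CTR1D300 against Dctr1_Con (26 as reported), 0 throughout for Dctr1_Con against WT_Con, 23 to 31 for CTR1D300 against WT_CTR1 (28) and 18 to 29 for the interaction (22), with leaving out single arrays giving 22 to 27, 0, 23 to 28 and 18 to 24. In CTR1D300 against Dctr1_Con, 22 of the 26 calls held in every alternative and 4 were lost in some (CLB6, MCM2, POL12 and TOF1). MCM2 reversed to 0.011 with the lower-numbered spot alone (adjusted p = 0.922). In CTR1D300 against WT_CTR1, 23 of 28 calls held in every alternative. With the replicate block the counts were 27, 0, 31 and 29 of 34, beside 4078, 99, 4399 and 3673 of all 6127 genes. The block ended no call reported here, whereas slide as a fixed block ended those of TOF1 and MSH6 in CTR1D300 against WT_CTR1. For CTR1D300 against WT_CTR1 same-numbered arrays did not all deviate together, and the block added MCM4, MCM5 and POL2.

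WT_CTR1 against WT_Con, with 1 gene called, depended on the processing. There were 0 calls with median centring, 0 without slide 1 and 0 when each spot alone had to be called the same way, a setting chosen after seeing the data. There were 2 with quantile normalization, 2 with probes well above background on all 12 arrays, 2 with the higher-numbered spot alone, 3 with the authors' series matrix values, 4 with slide as a fixed block, 4 with slide as a random block, 5 with the replicate block and 6 with the lower-numbered spot alone. Leaving out single arrays gave 0 to 2. Over all genes this comparison had 813 calls, and between 349 and 1677 under the alternatives, while Dctr1_Con against WT_Con had 30, and between 18 and 99. The cause was not tested. The number of arrays limits the precision, construct and slide column cannot be told apart within a strain, and the share of cells in each phase was not measured.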

Other observations

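In WT_CTR1 against WT_Con, a few genes of the comparison lists were called higher and none lower (7.25% and 6.02% of all genes). By sign, 6 of the 9 M/G1 genes were positive, opposite to CTR1D300. The other 3 (CTS1, DSE1 and DSE2) were negative, as in CTR1D300, and were not called. Of 9 M/G1 genes 3 rose, PCL9 by 0.45 ± 0.12, ASH1, a repressor of mating-type switching in daughter cells, by 0.42 ± 0.11, and DSE3 by 0.25 ± 0.07. CKS1, a subunit of the Cdc28 kinase, rose by 0.38 ± 0.08. Among fork genes RFC4 rose by 0.92 ± 0.09, DCC1 by 0.52 ± 0.08 and DPB3 by 0.28 ± 0.07, and among origin genes ORC6 by 0.24 ± 0.07 and ORC4 by 0.23 ± 0.06. RFC4, DPB3, ORC6, ORC4 and DSE3 were not called the same way with each spot alone.

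The interaction was below 0 for 9 of 9 M/G1 genes, 10 of 13 G2/M genes, 11 of 13 Start and G1 regulators, 5 of 19 other fork genes and 1 of 17 origin recognition and firing genes, at an adjusted p under 0.05, where 26.7% of all genes were lower and 19.7% higher. The shares of the other fork genes below 0 and of the origin genes above 0 were close to those over all genes. The interaction was called above 0 for 3 origin genes, PSF2 at 1.51 ± 0.16, SLD5 at 0.61 ± 0.10 and TAH11, which encodes the licensing factor Cdt1, at 0.54 ± 0.13. The median of the origin list was 0.00, beside -0.54 for the 34 genes and -0.07 for all genes tested.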
